A study of Mus musculus with 9 samples.

Results

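The transcripts described here encode secreted antagonists of Wnt signalling. They are 9 genes (Sfrp1, Sfrp2, Sfrp4, Sfrp5, Frzb, Dkk1, Dkk2, Dkk3 and Wif1) of the 54347 genes in the deposited table, taken by name as members of the SFRP, DKK and WIF families. Sfrp1 and Sfrp5 were chosen by their transcript levels across these libraries (their patterns over the tumors and islets), so their values are given as a description without a test, and the other 7 were added as relatives. RNA was sequenced from 6 pancreatic neuroendocrine tumors (PanNETs) and 3 samples of normal islets, with 1 library from each. The tumors came from INS-p25OE mice, in which the Ins2-rtTA transgene (a doxycycline-dependent activator driven by an insulin promoter) turns on tetOp-p25GFP, so that p25, the aberrant activator of the kinase Cdk5, is made in β-cells. Doxycycline was given in drinking water from weaning at 3 to 4 weeks of age. Its dose is left out, since the sources give conflicting doses. No doxycycline treatment is listed for the islet samples. The age of the mice at collection is not given in the sources used here. M1, M2 and M3 carry the word Inulin in their labels, and the study describes them as functional tumors. M4, M5 and M6 are the non-functional tumors. The islets (NI1, NI2 and NI3) carry the strain label C57BL/6, the background that all mice shared, and the study used transgene-negative littermates, housed with the bi-transgenic mice, as its normal controls. M2 came from a female and the other 8 libraries from males. The study saw some transgene expression without doxycycline, and no sorting of cells is described for the tumors or islets in the sources used here.

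Wnt proteins are secreted signals that bind Frizzled receptors together with the co-receptors Lrp5 and Lrp6, and in the canonical branch this leads to stabilisation of β-catenin and to transcription through TCF/LEF factors. Secreted frizzled-related proteins (SFRPs, to which Frzb belongs) carry a Frizzled-like cysteine-rich domain and can bind Wnt ligands, as can Wif1. Dickkopf proteins such as Dkk1 and Dkk2 act on Lrp5 and Lrp6 instead, while Dkk3 is a divergent relative whose part in Wnt signalling is less settled. In the pancreas several Wnt antagonists are made by mesenchyme, and Sfrp5 is known from endocrine cells of the islet.

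The promoters of the pair of members with matching gene starts in both annotations and opposite patterns are printed below, Sfrp2 for the members highest in M4 and Sfrp5 for the member highest in M6 and the library labelled NI1. Each runs from 250 bases before to 30 bases after the gene start (280 bases, RefSeq, build GRCm38.p6), 5′ to 3′ on the strand of the gene, with matches to the GC box GGGCGG in capitals. Sfrp2 lies at chr3:83766071-83766350 on the plus strand and Sfrp5 at chr19:42202223-42202502 on the minus strand.
Sfrp2: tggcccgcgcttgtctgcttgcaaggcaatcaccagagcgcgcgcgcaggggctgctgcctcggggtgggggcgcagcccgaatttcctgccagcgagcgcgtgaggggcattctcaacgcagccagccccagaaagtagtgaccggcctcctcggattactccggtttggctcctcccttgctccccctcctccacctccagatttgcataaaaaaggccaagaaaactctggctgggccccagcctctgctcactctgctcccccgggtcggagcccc
Sfrp5: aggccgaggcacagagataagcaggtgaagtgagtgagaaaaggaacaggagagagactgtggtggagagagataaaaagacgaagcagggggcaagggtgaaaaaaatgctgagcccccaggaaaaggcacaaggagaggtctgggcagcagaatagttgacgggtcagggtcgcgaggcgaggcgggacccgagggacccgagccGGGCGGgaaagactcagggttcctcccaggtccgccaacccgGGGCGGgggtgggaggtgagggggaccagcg

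The table of promoters held 6 of the 9 members. Sfrp2 had 18 CG dinucleotides and no GC box, and Sfrp5 had 15 CG dinucleotides and 2 GC boxes. Frzb had 18 CG dinucleotides and 1 GC box. Dkk2 and Wif1 each had 2 GC boxes and 1 TATAAA match, and Dkk1 had 1 TATAAA match. For Frzb, Dkk1 and Wif1 the RefSeq gene start used for the window differs from the start in the coordinates of the next paragraph. The TCF/LEF core CTTTGAT was found in 0 of the 6. On both strands of 32851 promoter windows of the same length, GGGCGG was found in 34.7%, TATAAA in 13.1% and CTTTGAT in 3.56%, and 41.5% had at least 10 CG dinucleotides. These matches are a description of the letters in a short window.

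In GRCm38, Sfrp1 spans 23411502 to 23449632 on chromosome 8, Sfrp2 83766321 to 83774316 on chromosome 3, Sfrp4 19623104 to 19632994 on chromosome 13, Sfrp5 42197971 to 42202252 on chromosome 19 and Frzb 80411970 to 80447625 on chromosome 2. Dkk1 spans 30545863 to 30549665 on chromosome 19, Dkk2 132085292 to 132180304 on chromosome 3, Dkk3 112116017 to 112159057 on chromosome 7 and Wif1 121033960 to 121100650 on chromosome 10. At 31 bases, which is shorter than a read, the family members are largely distinct in sequence. The share of a gene's 31-base words that also occur in another gene was at most 2.43% for 8 of the 9 genes. The exception was Sfrp2 with 13.7%, where 347 exonic bases are shared with the overlapping gene Gm26771. Gm26771 had at most 20 estimated counts in any library, against up to 397 for Sfrp2 (in M4). In NI1, NI2, NI3 and M6, however, Gm26771 had 20, 10, 7 and 17 counts and Sfrp2 only 2, 6, 2 and 4. The part of the overlap in these low Sfrp2 values was not tested.

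The deposited values are salmon's estimates of the reads from each gene, summing to between 36468280 and 63637175 per library. They were scaled by the TMM method of edgeR to CPM, a level that allows for library size, in which 3 counts stood for 0.0425 to 0.119 CPM. The libraries did not all follow their labels. Cdk5r1, the gene for p35 from which p25 is derived, was at 280 CPM in NI1, within the 149 to 401 CPM of the 6 tumors and far above 18.4 CPM in NI2 and 12.5 CPM in NI3. Over 15532 genes, NI1 correlated with M6 at r = 0.988 on log2(CPM + 1), the highest of all 36 pairs of libraries, and with NI2 and NI3 at 0.932 and 0.920. It is called the library labelled NI1, or NI1 for short, and the differences from islets that turn on it are also given without it, or without both NI1 and M6. M4 stood apart as well, with 32.1% of its counts on mitochondrial genes against 1.76% to 8.41% in the others.

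Of the 9 members, 6 passed the filter of at least 1 CPM in at least 3 libraries. For the filter alone, CPM was taken before TMM scaling, so it can differ from the CPM printed here. Of the 7 members not picked for their patterns, 4 passed (Sfrp2, Frzb, Dkk2 and Dkk3), and 0 of these 4 passed the test in tumors against islets at an adjusted p under 0.05 by edgeR's quasi-likelihood test. The background was small, since 0.258% of all tested genes passed (40 of 15532, all lower in tumors). At an unadjusted p under 0.05, 1 of the 4 members (Sfrp2) stood beside 19.8% of all genes. DESeq2 called 1 of the 4, again Sfrp2, beside 8.13% of all genes, and limma-voom called 0 beside 0.212%. Without NI1 the background was 8.34% of genes and 0 of the 4 members passed. Without both NI1 and M6, a setting chosen after seeing the data that drops the tumor nearest the islets, it was 9.32% and 1 of the 4 passed (Sfrp2). Sfrp2 passed the filter only through the tumors, so its direction was set by the filter and its calls support nothing about the members.

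**Figure D1:**
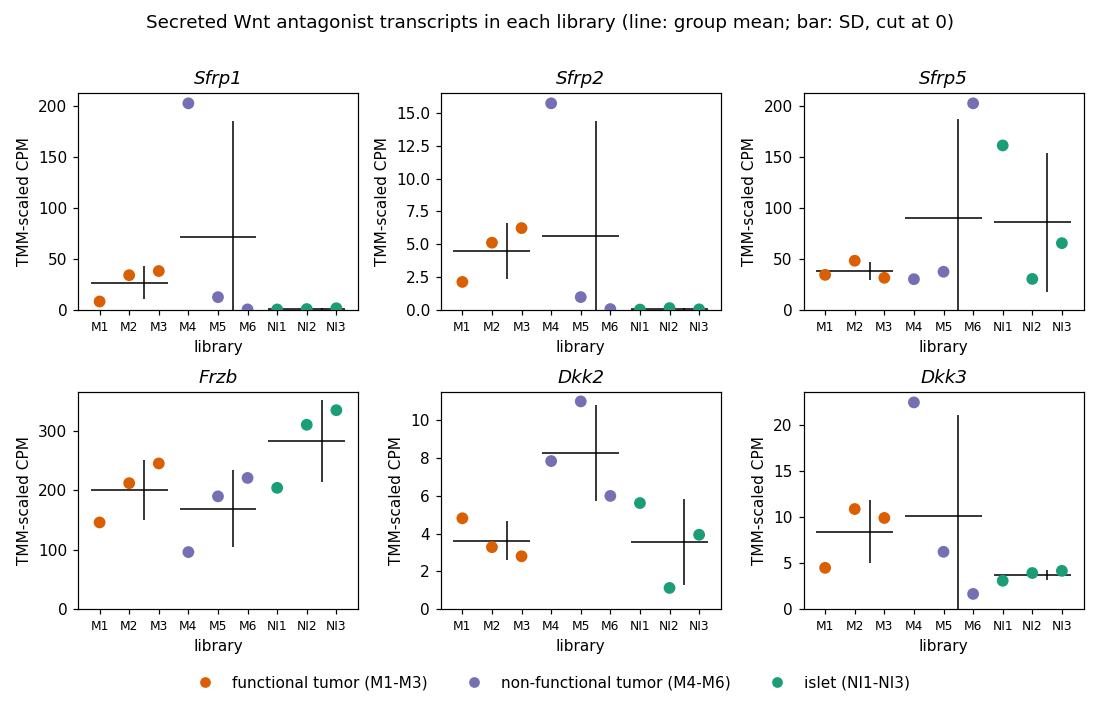
TMM-scaled CPM of the 6 antagonist genes that passed the filter, with 1 point for each library, a horizontal line at the group mean and a vertical bar of 1 SD that is cut at 0. Sfrp1, Sfrp2 and Dkk3 are highest in M4 and lowest among tumors in M6, while Sfrp5 is highest in M6 and NI1.

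Sfrp1 encodes a secreted frizzled-related protein that can bind Wnt ligands outside the cell. It was at 8.34, 34.1 and 38.2 CPM in M1, M2 and M3, at 202, 12.6 and 0.581 CPM in M4, M5 and M6, and at 0.549, 0.927 and 1.73 CPM in NI1, NI2 and NI3. Thus 5 of 6 tumors lay above every islet library, and M6 lay among the islets. Its log2 fold change was 5.53 (SE 1.64) for all tumors relative to islets, 5.21 without NI1 and 5.47 without both NI1 and M6. Among tumors the highest value was 349 times the lowest. Functional tumors averaged 26.9 CPM ± 16.2 (SD, n = 3) and non-functional tumors 71.9 CPM ± 113 (SD, n = 3), and the sign of that difference rested on M4. Between functional and non-functional tumors it was -1.42 with all libraries, 2.02 without M4 and 1.79 by limma-voom.

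Sfrp2, a close relative of Sfrp1 typical of fibroblasts, was also highest in M4 and lowest among tumors in M6, at a lower level. It was at 2.14, 5.12 and 6.24 CPM in M1, M2 and M3 and at 15.7, 0.983 and 0.0704 CPM in M4, M5 and M6. The islets had 0.0343, 0.146 and 0.0496 CPM, which came from 2, 6 and 2 estimated counts. Again 5 of 6 tumors lay above every islet library, and M6, with 4 counts, lay between the islet values. As a gene that entered through its high group, it had to differ, and the fit is given as a description. Relative to islets, tumors had a log2 fold change of 6.02 (SE 1.59, adjusted p = 0.148, edgeR). Over 18 alternatives it stayed positive, between 4.69 and 6.84, with adjusted p from 3.52e-05 to 0.595. Without M6 it was 6.28 (adjusted p = 0.0388, beside 1.41% of genes called), without both NI1 and M6 5.90 (adjusted p = 0.0319) and without NI1 alone 5.64 (adjusted p = 0.101). In a bulk sample, more cells that make Sfrp2 and more Sfrp2 per cell cannot be told apart.

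Sfrp4 was scarce, with 0 to 69 estimated counts per library and at most 0.977 CPM, in M2. Functional tumors averaged 0.537 CPM ± 0.412 (SD, n = 3), non-functional tumors 0.293 CPM ± 0.252 (SD, n = 3) and islets 0.135 CPM ± 0.205 (SD, n = 3). It did not pass the filter. With no filter, tumors relative to islets had a log2 fold change of 1.65 (adjusted p = 0.510, edgeR), so no difference was detectable at this depth.

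Sfrp5, the family member known from endocrine islet cells, had a pattern of its own. It was at 34.5, 48.3 and 31.6 CPM in M1, M2 and M3 and at 30.2, 37.5 and 203 CPM in M4, M5 and M6. In the islets it was at 161, 30.5 and 65.6 CPM in NI1, NI2 and NI3. The 5 tumors other than M6 lay between 30.2 and 48.3 CPM, around NI2 and below NI3, and M6 and NI1 were the 2 highest libraries. Relative to islets as labelled, tumors had a log2 fold change of -0.42 (SE 0.699), and it was 0.42 without NI1, -1.24 without M6 and -0.40 without both. Its sign in tumors against islets thus turned with 1 library. In functional against non-functional tumors it was -1.24 with all libraries and 0.17 without M6.

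Frzb, also called Sfrp3, was the most abundant member per kb of exon in 6 of the 9 libraries. It was at 146, 212 and 246 CPM in M1, M2 and M3, at 96.1, 190 and 221 CPM in M4, M5 and M6, and at 204, 311 and 335 CPM in NI1, NI2 and NI3. All 6 tumors lay below NI2 and NI3, and 3 of the 6 lay below NI1. Its log2 fold change for tumors relative to islets was -0.61 (SE 0.289, adjusted p = 0.270, edgeR), -0.80 without NI1 (adjusted p = 0.142) and -0.86 without both NI1 and M6 (adjusted p = 0.139). It was negative in each of the 18 alternatives, from -0.86 to -0.48, and passed in none of them. Non-functional tumors had a mean of 169 CPM ± 65.1 (SD, n = 3) and functional tumors 201 CPM ± 50.6 (SD, n = 3), less apart than their spread.

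Dkk1, the best-known Dickkopf inhibitor of Lrp5 and Lrp6, was close to undetected. It had 0 counts in 6 of the 9 libraries, 2 in M2, 1 in M6 and 5 in NI1. A count of 0 allows up to 3 counts, or 0.0425 to 0.119 CPM depending on the library, by counting error alone. No fold change is given for it.

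Dkk2, a Dickkopf protein that also binds Lrp5 and Lrp6, was the 1 tested member whose tumor groups did not overlap. Of all tested genes, 15.0% had tumor groups that did not overlap and 6.24% had all functional tumors lower, so 1 of 6 members is near the background. It was at 7.85, 11.0 and 6.00 CPM in M4, M5 and M6 and at 4.82, 3.28 and 2.80 CPM in M1, M2 and M3. In the islets it was at 5.62, 1.12 and 3.94 CPM. For functional relative to non-functional tumors its log2 fold change was -1.19 (SE 0.565, adjusted p = 0.502, edgeR), and it was negative in each of 17 alternatives, from -1.44 to -0.97, with adjusted p from 0.315 to 0.864. In that comparison 0% of all genes passed (0 of 15532), and 10.3% had an unadjusted p under 0.05. The unadjusted p of Dkk2 in the edgeR fit was 0.0639. Relative to islets, the log2 fold change of all tumors was 0.74 (SE 0.580, adjusted p = 0.500, edgeR) and 1.23 without NI1.

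Dkk3, the divergent Dickkopf relative, was likewise highest in M4 and lowest among tumors in M6, over a narrower span than Sfrp1. It was at 4.49, 10.9 and 9.93 CPM in M1, M2 and M3 and at 22.5, 6.24 and 1.65 CPM in M4, M5 and M6. The islets were close together, at 3.09, 3.93 and 4.16 CPM. Above every islet library were 5 of 6 tumors, and M6 was below every islet library. Tumors relative to islets had a log2 fold change of 1.32 (SE 0.676, adjusted p = 0.306, edgeR), and it ranged from 0.83 to 1.54 over 18 alternatives without passing in any of them. The lowest of these was without M4.

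Wif1, the Wnt inhibitory factor, had 0 to 21 estimated counts per library and at most 0.357 CPM, in M4. Functional tumors averaged 0.123 CPM ± 0.155 (SD, n = 3), non-functional tumors 0.131 CPM ± 0.197 (SD, n = 3) and islets 0.139 CPM ± 0.122 (SD, n = 3), so the means differed by less than the spread within any group. It did not pass the filter.

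**Figure D2:**
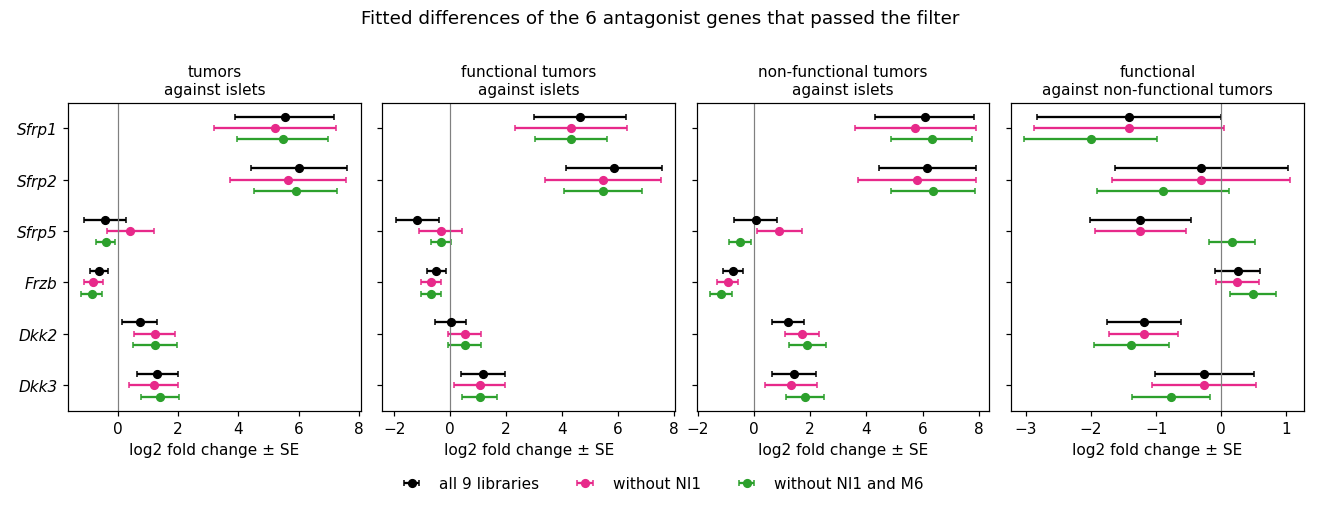
Log2 fold changes of the 6 genes that passed the filter, with the standard error as a horizontal bar, in 4 comparisons (columns) with all 9 libraries (black), without NI1 (pink) and without both NI1 and M6 (green). Sfrp1 and Sfrp2 lie above 4 in every comparison with islets, and Sfrp5 in tumors against islets moves from -0.42 to 0.42 without NI1.

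Against the islets, the functional and the non-functional tumors were also compared apart, in a fit of all 3 groups that shares the islet libraries. In functional tumors against islets 0.476% of all genes passed (74 of 15532) and 21.1% had an unadjusted p under 0.05. Of the 4 members tested, 0 passed, 1 had an unadjusted p under 0.05 (Sfrp2), DESeq2 called 1 (beside 10% of genes) and limma-voom 0 (beside 0.0708%). In non-functional tumors against islets 0% of genes passed (0 of 15532) and 14.5% had an unadjusted p under 0.05. There, too, 0 of 4 members passed and Sfrp2 had an unadjusted p under 0.05, with 1 call by DESeq2 (beside 2.52% of genes) and 0 by limma-voom (beside 0%). Each of these calls was Sfrp2, which entered through the tumors. For Sfrp2 the log2 fold change was 5.86 (adjusted p = 0.128, edgeR) in functional and 6.17 (adjusted p = 0.332) in non-functional tumors against islets. For Sfrp1 it was 4.66 and 6.08, and for Sfrp5 -1.17 and 0.07. For Frzb it was -0.49 (adjusted p = 0.439) and -0.74 (adjusted p = 0.352), and for Dkk3 1.18 (adjusted p = 0.409) and 1.44 (adjusted p = 0.394). For Dkk2 it was 0.03 (adjusted p = 0.984) and 1.22 (adjusted p = 0.352). In functional against non-functional tumors 0 of the 4 members passed by edgeR, DESeq2 (beside 0.721% of genes) or limma-voom (beside 0%), and by edgeR 0 of the 4 had an unadjusted p under 0.05.

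Per kb of exon, which allows levels of different genes to be compared, the members summed to 68.9 to 177 CPM per kb in a library. Frzb and Sfrp5 together made up most of this sum in every library but M4. Frzb held 84.3% in NI2 and 73.5% in NI3, and 62.1% to 70.3% in M1, M2, M3 and M5. Sfrp5 held 60.2% in M6 and 56.4% in NI1 and at most 26.3% in the other 7 libraries. In M4 the leading member was Sfrp1 with 42.7%, ahead of Frzb with 27.4%. Sfrp1 held at most 8.09% in the other tumors and at most 0.281% in the islets. Dkk2 held 0.266% to 3.43% and Dkk3 0.278% to 6.19%.

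**Figure D3:**
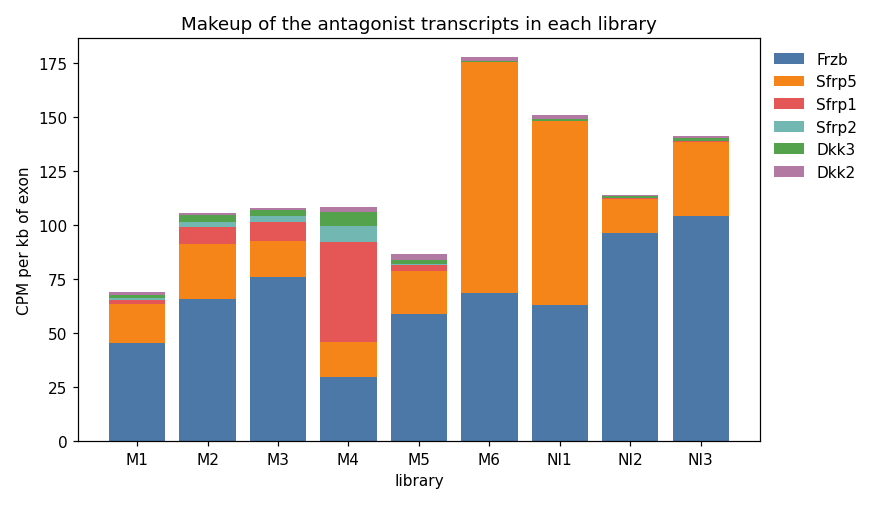
Stacked levels of the 6 antagonist genes that passed the filter in each library, in TMM-scaled CPM per kb of exon. Frzb (blue) leads in 6 libraries, Sfrp5 (orange) in M6 and NI1, and Sfrp1 (red) in M4.

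Some markers of other cell types moved with several members. The summed level of 10 fibroblast markers (Pdgfra, Lum, Dcn, Fbln1, Dpt, Pi16, Mfap5, Fap, Postn and Thy1) was 105 to 200 CPM in functional tumors, 34.1 to 376 CPM in non-functional tumors and 60.6 to 110 CPM in islets. It was highest in M4 and lowest in M6, as were Sfrp1, Sfrp2 and Dkk3 among tumors, and 0 of the 10 markers were at or under 3 counts in all tumors. The markers averaged higher in tumors than in islets, but unevenly. Dcn averaged 42.4 CPM in tumors and 33.7 CPM in islets, and Mfap5 11.4 and 0.409 CPM. The 10 pericyte and smooth muscle markers summed to 588 to 1082 CPM in functional tumors, 511 to 1438 CPM in non-functional tumors and 473 to 570 CPM in islets. This sum was also highest in M4 and lowest among tumors in M6, but otherwise its order differed from that of Sfrp1. It was 1082 CPM in M1 and 588 CPM in M2, where Sfrp1 was at 8.34 and 34.1 CPM. The 7 macrophage markers, too, were highest in M4 (1047 CPM) and lowest among tumors in M6 (377 CPM), with 378 to 633 CPM in functional tumors and 154 to 356 CPM in islets. The part of these 3 lists in the differences of Sfrp1, Sfrp2 and Dkk3 was not tested. Relative to the fibroblast marker sum, Dkk3 was nearly level, at 0.0378 to 0.0626 CPM per CPM of markers over all 9 libraries. Sfrp1 was not, at 0.539 in M4, 0.0794 to 0.191 in M1, M2, M3 and M5, 0.0170 in M6 and 0.00905 to 0.0157 in the islets. Sfrp2 was at 0.00676 to 0.0419 in the 5 tumors other than M6, at 0.00206 in M6 and at 0.00045 to 0.00233 in the islets.

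The 9 β-cell markers summed to 327600 CPM in NI2 and 365100 CPM in NI3, against 121900 CPM in NI1 and 18410 to 116800 CPM in the tumors. Nearly all of the sum was the hormone genes Ins1, Ins2 and Iapp, and transcription factors of the list did not follow it. Pdx1 averaged 192 CPM in tumors and 142 CPM in islets, Nkx6-1 726 and 660 CPM, and Mafa 213 and 204 CPM. The remaining genes of the list averaged lower in tumors, as the hormone genes did. G6pc2 averaged 823 CPM in tumors and 2159 CPM in islets, Slc2a2 124 and 233 CPM, and Ucn3 297 and 332 CPM. Frzb was highest in NI2 and NI3, as the hormone genes were, and their part in its difference was not tested. NI3 also held 5861 CPM of 8 acinar markers, against 0.766 to 388 CPM in the other 8 libraries.

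**Figure D4:**
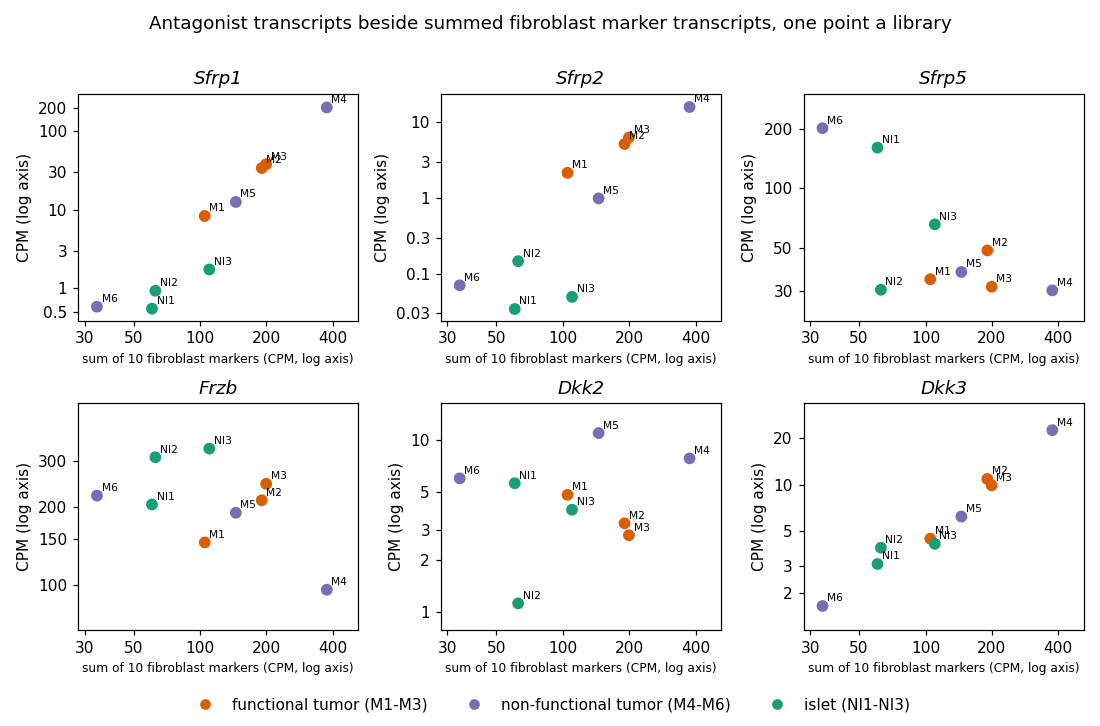
TMM-scaled CPM of each of the 6 genes (vertical, log axis) against the summed CPM of 10 fibroblast markers (horizontal, log axis), with 1 labelled point for each library. Dkk3, Sfrp1 and Sfrp2 lie higher where the markers do, with M4 at the top right, while Sfrp5 is highest in M6, where the markers are lowest.

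The 5 tested genes whose log2(CPM + 1) was most like that of Sfrp1 over the 9 libraries were Loxl1 (r = 0.996), Vgll3 (0.994), Bgn (0.993), Pcolce2 (0.993) and Serpinf1 (0.991). Loxl1, a lysyl oxidase that cross-links elastin, was at 56.5 CPM in M4, 9.27 to 21.1 CPM in the other tumors except M6, 2.25 CPM in M6 and 1.80 to 2.75 CPM in the islets. Bgn encodes biglycan, a proteoglycan of the extracellular matrix, and was at 709 CPM in M4 and 39.5 CPM in M6. For Sfrp5 the genes most like it included N6amt1 (0.950), Ddo (0.938), Mthfd1 (0.935) and Fbxo31 (0.928). Ddo, D-aspartate oxidase, was at 53.7 CPM in M6, 51.6 CPM in NI1 and 12.5 to 20.5 CPM in the other 7 libraries. These correlations describe 9 libraries in which M4, or M6 and NI1, lie far from the rest, and the same scaling underlies every gene.

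The other genes of the pathway were read from 5 lists. Of 19 Wnt ligands, 4 passed the filter, and 0 of these were called in tumors against islets. Their median log2 fold change was 0.18, against 0.03 over all genes. Wnt4, a ligand expressed in islets, was the most abundant at 115 to 346 CPM in tumors and 204 to 290 CPM in islets, followed by Wnt5b and Wnt9a with means of 9.75 and 3.77 CPM over the 9 libraries. Wnt5b was at 21.9 CPM in M6 and 19.3 CPM in NI1 and at 5.01 to 8.85 CPM elsewhere, so it was highest in the same pair of libraries as Sfrp5.

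Of 15 receptors, 13 passed the filter and 0 were called, with a median of 0.07. Without adjustment, 2 receptors had p under 0.05 and were higher in tumors and 3 were lower, beside 19.8% of all genes in either direction. Lrp5, Lrp6 and Ryk were the most abundant, with means of 84.7, 76.7 and 71.4 CPM. Lrp5, the co-receptor that Dickkopf proteins bind, was at 66 to 139 CPM in tumors, 93.6 CPM in NI1, 41.9 CPM in NI2 and 43.4 CPM in NI3. Its log2 fold change was 0.71 (adjusted p = 0.249, edgeR) and 1.19 without NI1 (adjusted p = 0.0377). It was the 1 of 13 receptors called in that setting, near the background of 8.34%.

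Of the 9 genes of the R-spondin axis, which act on the turnover of Frizzled receptors, 6 passed the filter and 0 were called, with a median of -0.37. Lgr4, Znrf3 and Rspo4 had the highest means, at 24.4, 20.8 and 16.7 CPM. Rspo4, a ligand of the Lgr receptors, ranged from 0.317 CPM in M6 to 40.3 CPM in M1. Of 11 other extracellular inhibitors, 4 passed the filter and 0 were called, with a median of 0.63 over these 4. Genes under the filter are not in this median and went in both directions at low levels. Sost and Sostdc1 lay below every islet library in all 6 tumors, and Tpbg lay above every islet library in 4 of 6. These were at most 1.41 CPM in any library and were named after their values were seen. Igfbp4, Kremen1 and Apcdd1 were the most abundant, with means of 76.7, 20.3 and 6.65 CPM. Igfbp4, which encodes an insulin-like growth factor binding protein, was at 262 CPM in M4 and 19.1 CPM in M6, the same extremes as Sfrp1. Cer1, which encodes the secreted antagonist Cerberus, was chosen after its values were seen. It was at 2.34 to 11.0 CPM in tumors and 6.38 CPM in NI1, but at 0.293 CPM in NI2 and 0.397 CPM in NI3. Its log2 fold change of 1.48 as labelled became 4.25 without NI1, a description of a gene chosen for this pattern.

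Of 11 Wnt target genes, 9 passed the filter and 0 were called, with a median of -0.56, and without adjustment 2 had p under 0.05 and were higher and 4 were lower, beside 19.8% of all genes. Bambi, Ccnd1 and Cd44 were the most abundant, with means of 86.7, 80.6 and 56.9 CPM. Axin2, the feedback inhibitor that is the most general target of canonical Wnt signalling, had a log2 fold change of 1.00 (SE 0.366, adjusted p = 0.190, edgeR), and was also chosen after its values were seen. It was at 7.71 to 24.4 CPM in tumors and 6.30 to 7.71 CPM in islets. Tcf7 and Lef1, genes of TCF/LEF factors that T cells also express, had log2 fold changes of -3.29 (adjusted p = 0.137, edgeR) and -3.84 (adjusted p = 0.113). Lef1, at most 0.436 CPM in tumors, passed the filter only through the islets, so its direction was set by the filter. Tcf7 also passed only with the islets counted, and both are among the 4 lower target genes above. Lef1 was named after its values were seen. Without NI1 Tcf7 was at -3.66 (adjusted p = 0.0281). The 8 lymphoid markers summed to 4.81 to 99.0 CPM in tumors and 142 to 167 CPM in islets. Among tumors the sum was highest in M6, mostly from Cd79a (89.8 CPM, against 44.9 CPM in NI2), while Tcf7 was highest in M4. The T cell genes Cd3e, Cd3g and Trbc2 averaged 0.825, 0.738 and 1.38 CPM in tumors. In islets these averaged 5.02, 4.98 and 10.6 CPM. The part of the lymphoid markers was not tested.

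Over the 5 lists, the genes called in tumors against islets by edgeR without NI1 were Lrp5, Cer1 and Tcf7, beside 8.34% of all genes. Among ligands and the R-spondin axis 0 were called. In this setting, and without both NI1 and M6, Cer1 passed the filter only through the tumors, which set its direction. Tcf7 passed it only with the islets counted. Without both NI1 and M6, 2 of 13 receptors (Lrp5 higher and Ror2 lower), 1 of 4 other inhibitors (Cer1, higher) and 2 of 8 target genes (Tcf7 and Myc, lower) were called, beside 9.32% of all genes, and again 0 ligands and 0 genes of the R-spondin axis. The log2 fold changes there were 1.16 for Lrp5 (adjusted p = 0.0493), -0.95 for Ror2 (adjusted p = 0.0345), -3.54 for Tcf7 (adjusted p = 0.0388) and -1.97 for Myc (adjusted p = 0.0104).

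**Figure D5:**
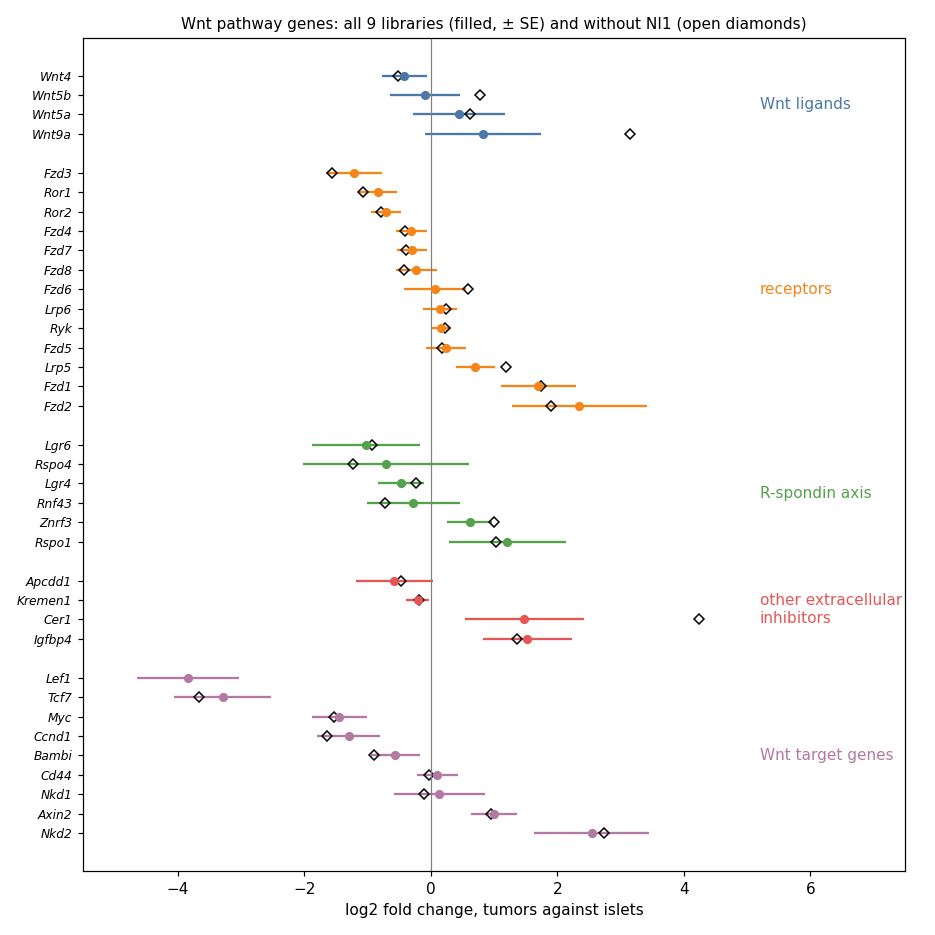
Log2 fold change in tumors against islets of the Wnt pathway genes that passed the filter, by list, with all 9 libraries (filled points with standard error) and without NI1 (open diamonds). Lef1 has no diamond because it did not pass the filter without NI1, and Cer1 moves from 1.48 to 4.25.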

How the data were processed

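Salmon 1.4.0 was run by the authors on single-end reads trimmed with Trimmomatic 0.38, against mm10, and the deposited table holds estimated counts (expected counts) per gene as whole numbers, with no scaling between libraries. The library kit was not stranded. The table has 0 other columns of per-sample values. Symbols and coordinates came from GENCODE for GRCm38 (54094 of 54347 genes). The 15532 genes that reached 1 CPM before TMM scaling in 3 or more libraries entered edgeR (version 4.0.16, TMM scaling, quasi-likelihood F test), two-sided. The p-values were adjusted by Benjamini-Hochberg over these genes. A gene was called at an adjusted p under 0.05. Tumors were a single group against islets, and functional and non-functional tumors were separated in a fit of 3 groups. The standard error is the size of the log2 fold change divided by the square root of F. By the study's methods its replicates are biological ones. Named genes are the 9 members, the 3 most abundant genes of each pathway list with up to 5 called ones, and the 5 genes most like Sfrp1 and Sfrp5 by Pearson's r, of which 1 is not reported here. The members and lists were chosen with earlier results of these data known. Scripts were tested on simulated data. Alternatives were DESeq2 1.42.0, limma-voom 3.58.1, other scalings and filters, removal of mitochondrial genes, a replicate block, and 1 library left out at a time. Leaving out NI1 and M6 together was chosen after seeing the data.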

Additional observations from a re-analysis of the deposited data

Results flagged for a closer look

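Among the 6 tumors a single library stood far from the rest for 2 of the 9 genes, measured as the gap to the nearest tumor divided by the range of all 6 (Dixon's ratio, compared with its critical value for 6 samples). For Sfrp1 the ratio was 0.814, from M4 at 202 CPM with the next tumor at 38.2 CPM. For Sfrp5 it was 0.895, from M6 at 203 CPM with the next tumor at 48.3 CPM. Both genes had been picked for these patterns, so the ratios restate that choice and are a description, not a test. For a gene not so picked, chance alone marks about 1 group in 20, and 0 of the other 7 members were marked. M4 was also the library with 32.1% mitochondrial counts and the highest fibroblast marker sum, and M6 the library that NI1 most resembled. The part of these in the values of Sfrp1 and Sfrp5 was not tested.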

How the results depend on the processing

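The direction of Sfrp1, Sfrp2, Dkk2 and Dkk3 (positive) and of Frzb (negative) in tumors against islets was the same in all 18 alternatives. Sfrp5 turned in 1 of 18, without NI1. Sfrp1 was picked for its pattern and Sfrp2 entered through the tumors, so their constant direction is only a description. Of the 4 members not picked for their patterns, 1 was called by DESeq2 and 1 without both NI1 and M6, and 0 to 1 when a single library was left out (1 without M6). Each of these was Sfrp2, which passed the filter only through the tumors.

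Counts over all genes moved more. With no filter on low counts, 104 genes were called in tumors against islets, 1 in functional against non-functional tumors, 433 in functional tumors against islets and 36 in non-functional tumors against islets. DESeq2 called 1263 (770 higher), 112, 1555 and 392. Without both NI1 and M6 the 3 comparisons with islets gave 1413, 1386 and 1068. The mean of both tumor groups in the fit of 3 groups gave 98 for tumors against islets, and limma-voom gave 11 for functional tumors against islets. Leaving out any 1 library moved the count by over 1.5 times for tumors (6 to 1280) and for functional tumors against islets (0 to 1201), with both highest counts without NI1. For non-functional tumors against islets the range was 0 to 602, with 602 without NI1 and 2 without NI2. The causes were not tested.

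In functional against non-functional tumors Sfrp2 reversed to 2.68 by limma-voom and ranged from -0.89 to 3.10 with 1 library left out, positive without M4 or M1. Dkk3 reversed to 0.73 by limma-voom and ranged from -0.77 to 1.09, positive without M4 or M1, and Frzb ranged from -0.026 (without M4) to 0.49. In functional tumors against islets Dkk2 was -0.004 by upper quartile scaling and ranged from -0.40 (without NI2) to 0.52 (without NI1). None of these passed the test in either direction.

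Deviations from the group means correlated at -0.0516, 0.03 and -0.159 in the 3 pairs of functional tumor and islet library with the same number. With 3 libraries in each group, such values cannot decide whether the numbers pair the samples. With a replicate block, functional tumors against islets gave 34 genes, against 163 in the same 6 libraries with no block, and Sfrp2 had an adjusted p of 0.0587 and 0.0376. Low counts limit Sfrp4, Dkk1 and Wif1 in every library and Sfrp2 in the islets and M6.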
